A study of Mus musculus with 12 samples.

Results

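The red cell membrane and surface genes comprised 8 genes taken by symbol from a given list, namely Slc4a1, Sptb, Ank1, Epb42, Rhag, Rhd, Kel and Epor, and all 8 were found among the 12199 genes of the count table. Of these, 7 matched by their symbol and 1, Epb42, by its older symbol Epb4.2. RNA-Seq was performed on whole BM cells, which the labels call mononuclear, of C57BL/6 mice of 4 genotypes, and 11 libraries were analysed, namely 3 WT, 3 DF, 3 TF and 2 TFD. DF mice carried a floxed and a normal Dnmt3a allele with MxCre and 1 Flt3 ITD allele, TF mice lacked 1 Tet2 allele and carried 1 Flt3 ITD allele, and TFD mice combined the Tet2, Dnmt3a and Flt3 ITD lesions. Every animal, WT included, received poly(I:C), the interferon inducer that switches on MxCre. The Tet2 allele was absent from all tissues of the TF and TFD mice, whereas the Dnmt3a deletion depended on Cre in cells that respond to interferon, and the Flt3 ITD allele, a tandem repeat inside the gene of a growth factor receptor, was shared by every mutant genotype. The comparison asks how the red cell program of the marrow differed between mice with either pair of lesions and mice with all 3.

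The red cell membrane is a lipid bilayer held to a flexible web of spectrin. Band 3 and the Rh complex span the bilayer, and ankyrin and protein 4.2 tie them to spectrin beneath it. These genes are switched on as erythroblasts mature, a program in which the transcription factors GATA1 and KLF1 take part, while the erythropoietin receptor keeps early erythroblasts alive and lies upstream of JAK2 and STAT5. In RNA from whole marrow, fewer cells of a type and less RNA per cell cannot be told apart.

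All genes lie on different chromosomes of mm10. Slc4a1, the anion exchanger band 3, lies at chr11:102348820-102365281 on the minus strand, Sptb, erythroid beta-spectrin, at chr12:76580488-76710547 on the minus strand, and Ank1, ankyrin, at chr8:22974836-23150497 on the plus strand. Epb42, protein 4.2, lies at chr2:121018217-121036755 on the minus strand. Rhag, the Rh-associated glycoprotein, lies at chr17:40811149-40840754 on the plus strand, and Rhd, the Rh blood group polypeptide, at chr4:134864536-134896172 on the plus strand. Kel, the Kell blood group endopeptidase, lies at chr6:41686330-41704325 on the minus strand, and Epor, the erythropoietin receptor, at chr9:21958899-21963576 on the minus strand. Reads were counted over all exons of a gene, so isoforms were not separated, and no gene shared exon bases with another gene of the table.

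Promoter sequences of RefSeq on GRCm38.p6, the same build as mm10, were matched for 6 of the 8 genes, namely Sptb, Epb42, Rhag, Rhd, Kel and Epor. Each spans 250 bases before and 50 bases after the annotated start. They were searched on both strands for the GATA motif, which is the letters GATA with A or T before them and A or G after them. A match was found in 6 of 6, compared with 29.8% of the 32817 promoters of the RefSeq table. The letters CCNCNCCC, the core of a KLF1 site, matched in Sptb, Rhd and Epor, compared with 49.5% of all promoters. The 150 bases before the start are shown for the 4 genes in which the GATA letters fall close upstream of it, with those letters in capitals and the gene's strand read 5′ to 3′. Rhag is at chr17:40810999-40811148, Rhd at chr4:134864386-134864535, Kel at chr6:41704326-41704475 and Epor at chr9:21963577-21963726.
Rhag: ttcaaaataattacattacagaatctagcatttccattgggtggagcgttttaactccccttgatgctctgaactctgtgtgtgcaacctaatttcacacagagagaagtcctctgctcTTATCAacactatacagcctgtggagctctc
Rhd: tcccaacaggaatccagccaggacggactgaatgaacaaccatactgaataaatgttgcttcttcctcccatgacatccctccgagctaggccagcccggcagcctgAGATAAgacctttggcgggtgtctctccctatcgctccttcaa
Kel: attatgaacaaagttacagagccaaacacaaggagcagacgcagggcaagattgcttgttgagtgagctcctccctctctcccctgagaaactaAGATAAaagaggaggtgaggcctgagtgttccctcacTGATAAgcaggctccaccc
Epor: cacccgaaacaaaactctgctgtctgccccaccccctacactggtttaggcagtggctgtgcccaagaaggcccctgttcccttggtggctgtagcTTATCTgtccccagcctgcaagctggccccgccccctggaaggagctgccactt
The first matched base lay at −31 in Rhag, −43 in Rhd, −56 and −19 in Kel and −54 in Epor, counted from the start. In Sptb the match began at +13, after the start, and in Epb42 at −226, counted from a RefSeq start that lies upstream of the gene coordinates given above. The strand is that of the RefSeq table. For 5 of 6 promoters the bases after the start were also found at the beginning of a GENCODE transcript. For Epor they were not found there, so its orientation was not borne out this way. A match is a description of the letters only, and no binding was measured.

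Some features of the libraries bear on the results. Library totals over the kept genes ranged from 8274153 to 15900904 counts, and the members' own counts ranged from 11 for Epor in DF replicate 1 to 4129 for Slc4a1 in TF replicate 3. TF replicate 3 stood apart from the other TF libraries in the levels of the 8 genes themselves. The TF values of these genes and the counts of the lists of related genes are therefore also given without it. As it was picked by the tested values and lay nearest to WT, leaving it out is bound to enlarge the falls. WT replicate 3, TF replicate 3 and TFD replicate 2 held 30976 to 42152 reads of Xist, the RNA of the inactive X chromosome, and each other library 538 or fewer, so WT, TF and TFD held libraries of both sexes and DF did not. Globin mRNA was depleted before library preparation, and the globin genes of the marker lists were not in the table.

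Levels in WT were compared per kilobase of exon. Slc4a1 was highest at 56.4 ± 4.94 CPM per kb, followed by Rhd at 47.2 ± 7.53, Rhag at 40.2 ± 6.12, Kel at 30.0 ± 2.51, Sptb at 20.8 ± 2.60, Ank1 at 20.7 ± 2.37, Epb42 at 13.9 ± 1.38 and Epor at 10.8 ± 2.47 CPM per kb (SD, n = 3). The library ranges of neighbours overlapped between Slc4a1 and Rhd, Rhd and Rhag, Sptb and Ank1, and Epb42 and Epor, so those neighbours were not separated. In DF the order kept Slc4a1 first, at 8.08 ± 2.17 CPM per kb, with no overlap with the next gene, Rhd, at 3.23 ± 1.19. Epor was last in every genotype, at 0.546 ± 0.137 CPM per kb in DF and 4.01 ± 3.41 in TF (SD, n = 3), and at 2.29 CPM per kb in both TFD libraries.

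In DF marrow all 8 genes fell, to between 3.98% and 17.5% of their WT mean in single libraries. In TFD marrow 7 of 8 fell, and in TF marrow 6 of 8 fell. Without TF replicate 3, the TF library nearest to WT in these genes, all 8 fell in TF. Without TF replicate 1 or TF replicate 2, 0 were called. Of all 12175 genes tested, 16.6% were called lower in DF than in WT, 11.6% in TFD and 15.6% in TF (16.4% of 12146 without TF replicate 3). Every DF library lay below every WT library for all 8 genes, compared with 22.5% of all genes. The same held for all 8 genes in TFD, compared with 23.5%, and for 6 of 8 in TF, compared with 22.9%, the exceptions being Slc4a1 and Epb42. The median log2 fold change of the 8 genes was −3.85 in DF, −1.14 in TF and −1.93 in TFD, while that of all genes was 0.05, 0.02 and 0.01. Without TF replicate 3 the TF log2 fold changes were −0.89 for Slc4a1, −1.84 for Sptb, −2.05 for Ank1, −1.61 for Epb42, −2.44 for Rhag, −1.96 for Rhd, −1.99 for Kel and −2.40 for Epor. The count called lower in TF was 3 with DESeq2, which called 17.6% of all genes lower, and 3 by edgeR with only TF and WT in the fit (16.4% of all genes). By edgeR it was 0 without TF replicate 1 (9.59% of all genes) or TF replicate 2 (10.6%). In those fits 5 and 4 of 8 had an unadjusted p under 0.05, compared with 45.3% of all genes in the fit of all libraries. The count called lower was 1 without WT replicate 3 (13.4%), and 3 without WT replicate 1 (13.3%) or WT replicate 2 (10.6%). In TFD it was 2 without TFD replicate 2, namely Rhag and Epor, with 7.67% of all genes called lower. Over 18 alternatives the TF call was lost in 10 for Kel, 9 for Rhd, 7 for Sptb, 3 for Ank1, 3 for Epor and 2 for Rhag. The 3 comparisons share the WT libraries and are not independent of each other.

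**Figure D1:**
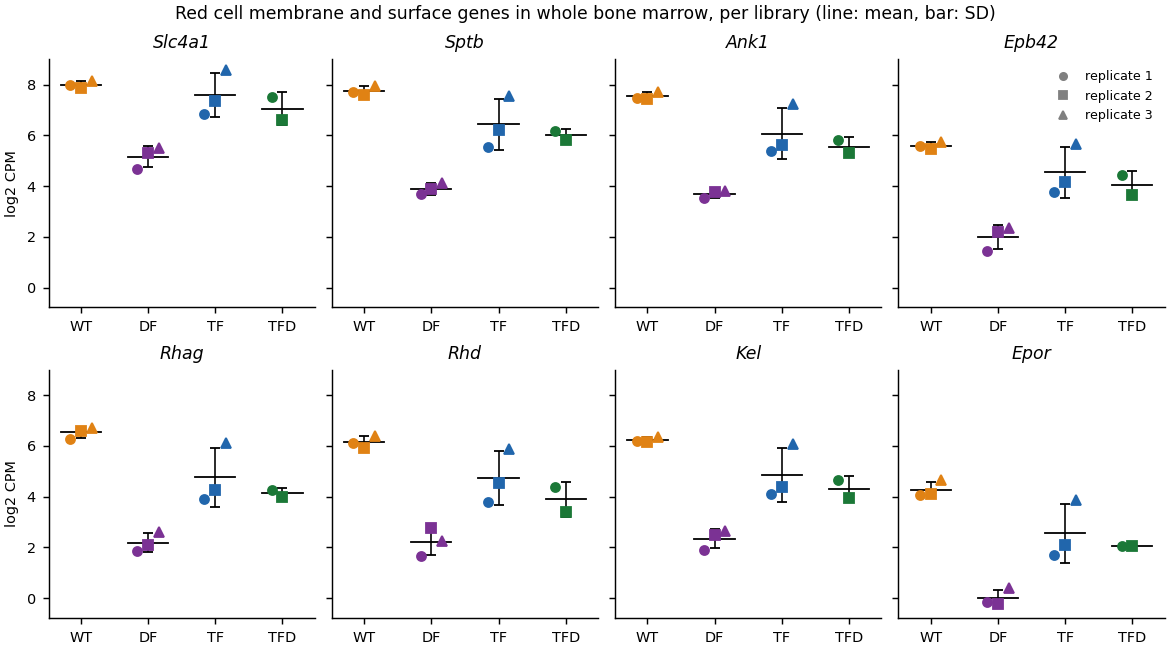
Log2 CPM of each gene (vertical axis) in every library by genotype, with the marker giving the replicate number, the line the mean and the bar the SD. The DF libraries are the lowest for each gene, and TF replicate 3 lies near WT while the other TF libraries lie below it.

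Among the membrane proteins, band 3 had the log2 fold changes nearest to 0. The level of Slc4a1 was 8.0, 7.87 and 8.13 log2 CPM for WT, 4.69, 5.31 and 5.49 for DF, 6.85, 7.34 and 8.56 for TF, and 7.50 and 6.60 for TFD. The DF libraries lay apart below all others, the TFD libraries and the first and second TF libraries lay below WT, and TF replicate 3 lay above every WT library. Against WT the DF value was −2.81 on the log2 scale (SE 0.39, adjusted p = 0.000163, edgeR's quasi-likelihood test with Benjamini-Hochberg adjustment), a level 6.99-fold lower with a 95% interval of 3.90 to 12.5. The TF value was −0.24 (adjusted p = 0.636), its interval reaching from −1.01 to 0.54, and the TFD value was −0.88 (adjusted p = 0.136), its interval reaching from −1.77 to 0.01. Without TF replicate 3 the TF value was −0.89 (adjusted p = 0.0156), and without TF replicate 1 it turned to 0.069 and was not called (adjusted p = 0.901).

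The skeleton genes Sptb and Ank1 moved by nearly the same amount in DF. Sptb stood at 7.71, 7.59 and 7.94 log2 CPM for WT, 3.67, 3.88 and 4.13 for DF, 5.56, 6.20 and 7.54 for TF, and 6.18 and 5.82 for TFD. Ank1 stood at 7.49, 7.41 and 7.72 log2 CPM for WT, 3.53, 3.75 and 3.79 for DF, 5.37, 5.61 and 7.23 for TF, and 5.81 and 5.29 for TFD. For both genes no mutant library reached the lowest WT library, and TF replicate 3 came closest to it. Beta-spectrin, a chain of the web, fell by 3.85 on the log2 scale in DF (SE 0.41, adjusted p = 2.82e-05), which is a 14.5-fold lower level (95% interval 7.85 to 26.6). Its log2 fold change was −1.74 for TFD (adjusted p = 0.00887) and −1.08 for TF (adjusted p = 0.0328), both falls. Ankyrin, which links band 3 to spectrin, fell throughout, with values of −3.85 for DF (SE 0.41, adjusted p = 3.17e-05), −1.97 for TFD (adjusted p = 0.00524) and −1.23 for TF (adjusted p = 0.0202).

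Protein 4.2, which binds band 3 and ankyrin from the inside, was the lowest of the 4 scaffold genes per kilobase. Epb42 stood at 5.57, 5.46 and 5.74 log2 CPM for WT, 1.44, 2.20 and 2.34 for DF, 3.77, 4.18 and 5.65 for TF, and 4.42 and 3.64 for TFD. TF replicate 3 lay inside the WT range, and all other mutant libraries lay below it. Against WT it fell in DF, at −3.56 (SE 0.45, adjusted p = 8.21e-05), and TFD, at −1.51 (adjusted p = 0.0249), while the TF value was −0.83 (adjusted p = 0.108). Without TF replicate 3 the TF value was −1.61 and was called. With any 1 library left out it ran from −1.61 to −0.50 (adjusted p up to 0.318 over the alternatives).

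The Rh complex pairs the Rh polypeptide with the Rh-associated glycoprotein, which carries the complex to the surface. Its level was 6.27, 6.60 and 6.71 log2 CPM for WT, 1.88, 2.09 and 2.60 for DF, 3.91, 4.28 and 6.10 for TF, and 4.27 and 3.99 for TFD. No mutant library overlapped WT, and DF did not overlap TF or TFD. In DF it fell, at −4.34 (SE 0.50, adjusted p = 4.69e-05), a 20.3-fold lower level (95% interval 9.60 to 42.8). The TFD value was −2.40 (adjusted p = 0.0041) and the TF value −1.45 (adjusted p = 0.0178). Rhd stood at 6.13, 5.93 and 6.39 log2 CPM for WT, 1.68, 2.76 and 2.25 for DF, 3.77, 4.53 and 5.88 for TF, and 4.37 and 3.41 for TFD. TF replicate 3 missed the lowest WT library by little, and TFD replicate 2 was the lowest library outside DF. Rhd fell in all 3 genotypes, with log2 fold changes of −3.85 for DF (SE 0.48, adjusted p = 8.5e-05), −2.18 for TFD (adjusted p = 0.00663) and −1.17 for TF (adjusted p = 0.0436, up to 0.133 over the alternatives).

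The surface protein Kel and the receptor Epor were lowest in DF. Kel stood at 6.19, 6.14 and 6.37 log2 CPM for WT, 1.91, 2.49 and 2.65 for DF, 4.11, 4.38 and 6.08 for TF, and 4.65 and 3.93 for TFD. Epor stood at 4.07, 4.12 and 4.64 log2 CPM for WT, −0.16, −0.22 and 0.39 for DF, 1.70, 2.10 and 3.86 for TF, and 2.07 for both TFD libraries. All WT libraries lay above all mutant libraries for both genes, with TF replicate 3 again the nearest. Kel fell in the same 3 comparisons, at −3.87 for DF (SE 0.47, adjusted p = 6.1e-05), −1.89 for TFD (adjusted p = 0.0104) and −1.10 for TF (adjusted p = 0.0465, up to 0.150 over the alternatives). Epor reached −4.32 for DF (SE 0.52, adjusted p = 6.1e-05), a 20.0-fold lower level with a 95% interval of 9.16 to 43.6, and the DF libraries held 11, 13 and 13 Epor reads. It also fell in TFD, at −2.23 (adjusted p = 0.00594), and in TF, at −1.44 (adjusted p = 0.0179).

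**Figure D2:**
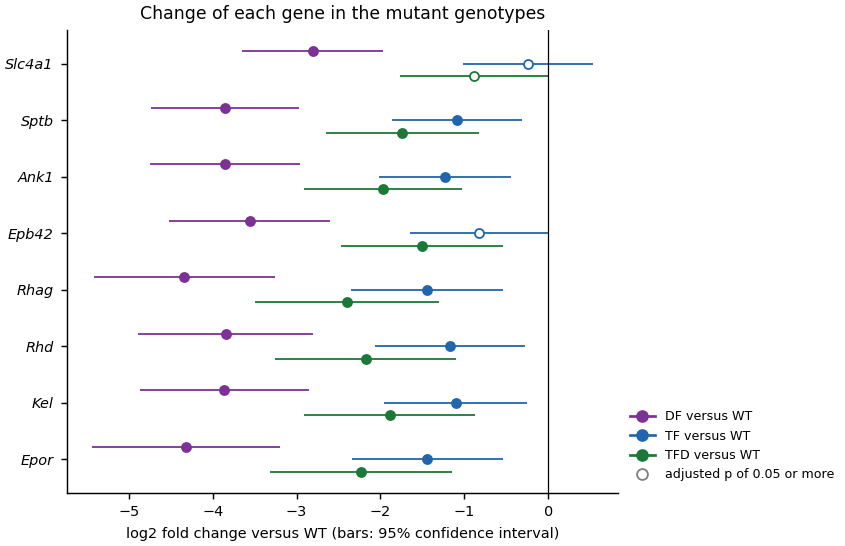
Log2 fold change of each gene versus WT (horizontal axis) in DF, TF and TFD, with bars for the 95% confidence interval of edgeR's quasi-likelihood fit and open points where the adjusted p was 0.05 or more. The DF points lie between −4.34 and −2.81, the TFD points between −2.40 and −0.88, and the TF points between −1.45 and −0.24.

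The mutant genotypes were then compared with each other. DF lay below TF for all 8 genes, by log2 fold changes of −2.57 to −2.89 (adjusted p = 0.00325 to 0.00951), while 4.27% of all genes were called lower. In each of the 8 genes every DF library was below every TF library, compared with 12.1% of all genes. Without TF replicate 3 the differences were smaller, from −1.80 to −2.01, and all 8 were called (adjusted p = 0.000179 to 0.00543). The difference was −2.89 for Rhag (SE 0.49) and −2.57 for Slc4a1 (SE 0.39), within their errors of each other. Without DF replicate 2 the call was lost for Epor (adjusted p = 0.0653) and held for the other 7 genes.

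DF also lay below TFD in every library for all 8 genes, compared with 14.1% of all genes. The log2 fold changes of DF versus TFD ran from −2.11 for Sptb to −1.67 for Rhd, and edgeR's quasi-likelihood test over the 4 genotypes called 0 of 8 (adjusted p = 0.0993 to 0.195) and 0.0% of all genes. The unadjusted p was under 0.05 for 8 of 8, compared with 6.95% of all genes lower. DESeq2 called 6 of 8, with 1.27% of all genes called lower, and edgeR called 8 of 8 when only DF and TFD were in the fit (0.895%) or when TF replicate 3 was left out (1.42%). For TF versus TFD the differences were 0.64 to 1.01 higher in TF (adjusted p = 0.588 to 0.714), with 0 of 8 called by edgeR or DESeq2 and 0 with an unadjusted p under 0.05. Of all genes, edgeR called 0.0164% in either direction, 8.77% had an unadjusted p under 0.05, and DESeq2 called 0.895% higher in TF. The 95% interval of this difference reached from −0.24 to 1.53 for Slc4a1 and from −0.29 to 1.87 for Epor. Without TF replicate 3 the differences lay between −0.16 and 0.21, and 7 of 8 changed sign.

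The libraries were next read one by one against the WT mean of each gene. In DF replicates 1, 2 and 3 the median of the 8 genes was 5.30%, 7.35% and 7.80% of the WT mean. In TF replicates 1 and 2 it was 22.1% and 30.0%, and in TF replicate 3 it was 84.8%, with Rhag at 74.2% and Slc4a1 at 147%. In TFD it was 31.8% and 21.4%. The medians of the first and second TF libraries thus lay between those of the TFD libraries, and TF replicate 3 was the only mutant library in which a member exceeded its WT mean.

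**Figure D3:**
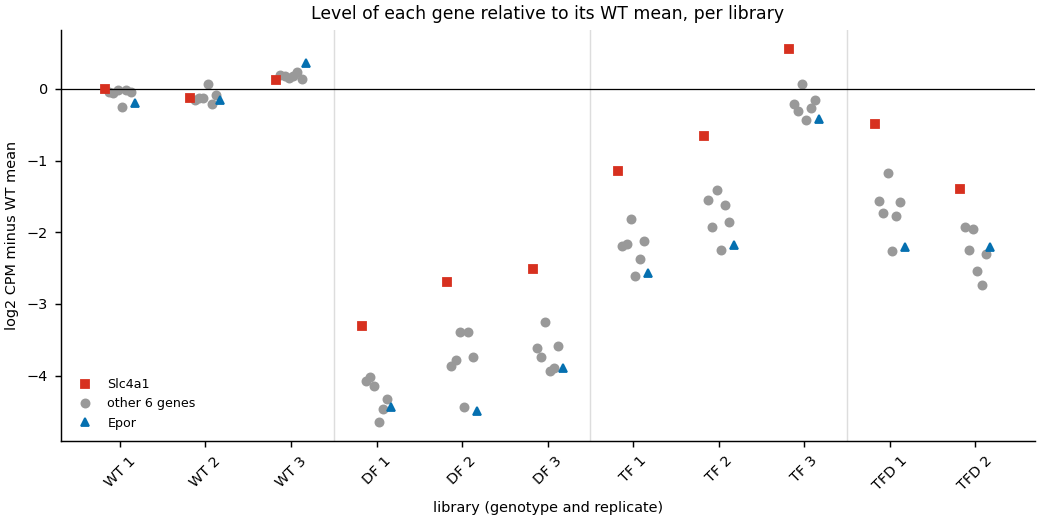
Log2 CPM minus the WT mean (vertical axis) of Slc4a1, Epor and the other 6 genes in each library, with 0 marking the WT mean. Slc4a1 is the highest of the 8 genes in all 8 mutant libraries, reaching 0.56 in TF replicate 3, and the DF libraries lie lowest.

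Slc4a1 was the member that kept the most of its WT level in each of the 8 mutant libraries. Its transcript accumulates late in erythroblast maturation, while Epor acts early, and the 2 genes were compared within libraries. Epor minus Slc4a1 was −3.92, −3.76 and −3.49 log2 CPM for WT, −4.85, −5.53 and −5.10 for DF, −5.15, −5.24 and −4.70 for TF, and −5.43 and −4.52 for TFD. All mutant libraries lay below all WT libraries, TF replicate 3 included. The mutants averaged −5.07 ± 0.35 (SD, n = 8) and WT −3.72 ± 0.22 (SD, n = 3), a difference of −1.34 (exact permutation test, two-sided, with 165 ways to split the libraries, p = 0.00606, the smallest that this design allows). This test reads the same values as the standing of Slc4a1 above and is not independent of it. As Slc4a1 kept the most in every mutant library, Epor minus Slc4a1 had to lie below the WT mean in each. The test also pools the 3 mutant genotypes. On the scale of log2(CPM + 1) the difference was −0.89 (exact permutation p = 0.0182). Relative to Slc4a1 the other members also stood lower in the mutants. Rhag averaged −1.47 log2 CPM against Slc4a1 for WT, −2.97 for DF, −2.82 for TF and −2.92 for TFD. Epb42 differed least, at −2.41 for WT, −3.17 for DF, −3.05 for TF and −3.02 for TFD. These differences between genes were of similar size in the mutant genotypes although the falls themselves were not, and only that of Epor was tested.

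The members varied together over the libraries. Pearson's r of log2 CPM between 2 members ranged from 0.941 to 0.997 over all 11 libraries (median 0.988, 28 pairs of genes), and from 0.938 to 0.998 over the 8 mutant libraries. These libraries share genotypes, depth and the standing of TF replicate 3, so r is a description of the samples. The genes whose log2 CPM was most like the mean standardised profile of the 8 genes included Tspan8 (r = 0.996), Sox6 (0.995), Btnl10 (0.992), Dmtn (0.992), Hemgn (0.990) and Add2 (0.990), over 11 libraries. In all, 103 of 12167 other genes had an r of at least 0.95. By Spearman's rho only 1 of the 8 genes with the highest r, Btnl10, was again among the 8 most alike.

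The other genes of the membrane skeleton list did not move as a block. Of 12 skeleton genes, 7 were called lower and 3 higher in DF (median −0.62), 3 lower and 2 higher in TF (median −0.23), and 5 lower and 3 higher in TFD (median −0.33). In TF without replicate 3, 5 were lower and 3 higher, and 3 to 8 were called with any 1 library left out. Of all genes, 21.0% were called higher in DF, 19.0% in TF and 14.7% in TFD. Add2, the adducin chain of red cells and brain, fell, with log2 fold changes of −4.35 in DF, −1.40 in TF and −2.39 in TFD (adjusted p = 1.14e-05, 0.0055 and 0.000875). Tmod1, which caps actin at the spectrin junctions, fell in DF, at −2.84 (adjusted p = 0.000828), where the libraries held only 7 to 12 Tmod1 counts. Its log2 fold changes were −0.68 for TFD (adjusted p = 0.311) and 0.12 for TF (adjusted p = 0.84). Add3 and Stom were among the genes of this list that rose. Add3, a widely expressed adducin, rose by 0.76 in DF, 0.51 in TF and 0.66 in TFD (adjusted p = 0.000531, 0.00768 and 0.00358), and Stom, stomatin, rose by 0.42, 0.48 and 0.44 (adjusted p = 0.00932, 0.00513 and 0.0184).

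Of 17 other red cell surface and transport genes in the table, 13 were called lower in DF (median −1.88), 7 in TF (median −0.87) and 11 in TFD (median −1.36). The TF count was 11 without replicate 3, and 5 to 11 were called with any 1 library left out. None was called higher in DF or TF by edgeR, and 1 was in TFD, the stretch-activated channel Piezo1, at 0.41 (adjusted p = 0.0437). Ermap, the Scianna blood group protein, fell in each genotype, with −4.69 in DF, −1.84 in TF and −2.60 in TFD (adjusted p = 4e-05, 0.00706 and 0.00363). Aqp1, a water channel, fell with values of −4.42, −1.60 and −2.60 (adjusted p = 2.61e-05, 0.00823 and 0.00191). Xk, the membrane partner of Kel, fell in the 3 genotypes, with −1.45, −1.31 and −1.54 (adjusted p = 0.000102, 0.000252 and 0.000311), and its difference between DF and TF was −0.14 (adjusted p = 0.79). That of Kel between DF and TF was −2.76 (adjusted p = 0.00576). Cd47, Bsg and Slc2a1, which most cells express, passed the test in no genotype, with log2 fold changes between −0.37 and 0.21. Ackr1 had 3 counts in each DF library, so no size is given for its fall there.

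**Figure D4:**
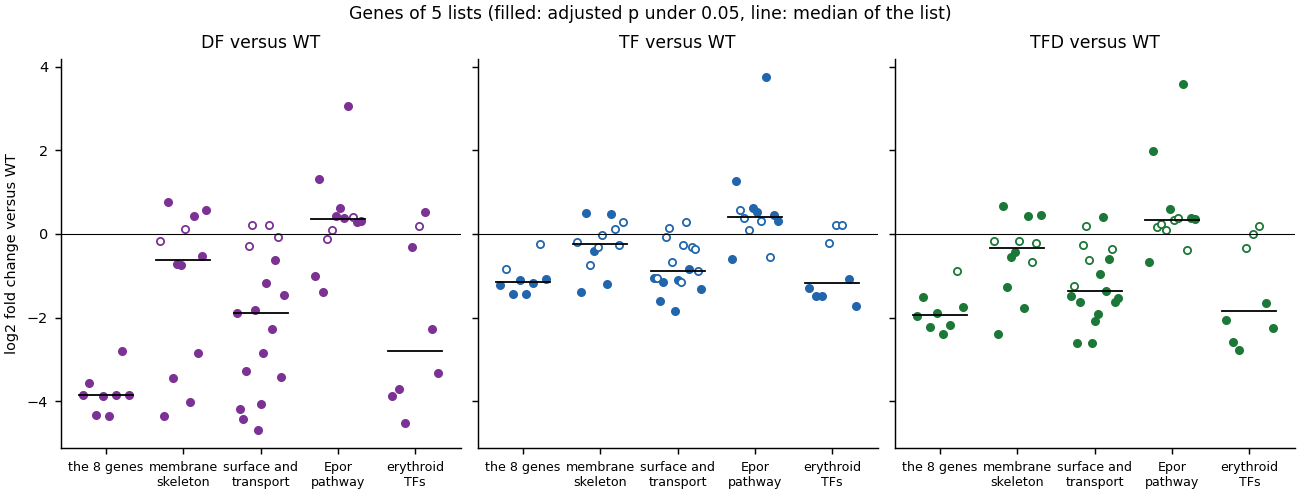
Log2 fold change versus WT (vertical axis) of the genes of 5 lists in DF, TF and TFD, where filled points had an adjusted p under 0.05 and the line is the median of the list. The 8 genes lie at or below −0.24 in all 3 comparisons, while the genes of the Epor pathway lie mostly above 0.

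Downstream of Epor, more pathway genes were called higher than lower. Of 12 genes, 7 were called higher and 2 lower in DF (median 0.35), 6 higher and 1 lower in TF (median 0.41), and 5 higher and 1 lower in TFD (median 0.34). The TF counts were again 6 and 1 without replicate 3, and 5 to 8 genes were called with any 1 library left out. When scaled by library totals alone, 5 (3 higher, 2 lower) were called in DF, as many as without WT replicate 3, DF replicate 1 or DF replicate 3. Socs2, a feedback inhibitor of cytokine receptors, had 2.22 to 3.31 CPM for WT, 20.2 to 23.3 for DF, 33.4 to 37.3 for TF and 26.1 to 36.9 for TFD. It rose by log2 fold changes of 3.06, 3.76 and 3.59 (adjusted p = 1.79e-06, 2.76e-07 and 6.36e-07). Cish, another STAT5 target and inhibitor, rose by 1.32, 1.26 and 1.98 (adjusted p = 0.000969, 0.00162 and 0.000139). The kinase Jak2, which binds the receptor, passed the test in no genotype, with values of −0.13, 0.37 and 0.23 (adjusted p = 0.534, 0.074 and 0.35). Bcl2l1, a survival gene of late erythroblasts, fell, with −1.0, −0.60 and −0.68 (adjusted p = 0.000465, 0.0115 and 0.014). Erfe, erythroferrone, the erythroblast hormone that lowers hepcidin, fell in DF, at −1.39 (adjusted p = 0.00779), and had values of 0.17 for TFD (adjusted p = 0.765) and 0.57 for TF (adjusted p = 0.173). Most of these pathway genes also serve other cytokine receptors, among them those of myeloid cells, and the count table does not separate the cells.

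Of 8 erythroid transcription factor genes, 6 were lower and 1 higher in DF (median −2.80), and 5 were lower in TF (median −1.18) and in TFD (median −1.85). In TF 5 were also lower without TF replicate 3, and 2 to 5 were called with any 1 library left out. Klf1 had 45.1 to 87.4 CPM for WT, 2.57 to 3.25 for DF, 9.13 to 49.3 for TF and 7.22 to 12.6 for TFD, and its log2 fold changes were −4.51, −1.48 and −2.78 (adjusted p = 6.81e-05, 0.0235 and 0.00328). Those of Gata1 were −3.87, −1.30 and −2.05 (adjusted p = 7.46e-05, 0.0245 and 0.00734). Nfe2, which megakaryocytes and other myeloid cells also express, was higher in DF, by 0.52 (adjusted p = 0.0137), and Lmo2 had values of 0.19, 0.22 and −0.01 that did not pass the test.

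Markers of several cell types also differed between genotypes, and their counts include TF replicate 3. Of all genes, 16.6% were called lower in DF, 15.6% in TF and 11.6% in TFD, and 21.0%, 19.0% and 14.7% higher. All 5 early erythroid markers in the table (Gata1, Klf1, Car1, Tfrc and Hemgn) were lower in DF, TF and TFD, and their summed level was 1114 to 1439 CPM for WT, 239 to 372 for DF, 395 to 966 for TF and 364 to 404 for TFD. Tfrc made up the largest part of this sum, at 662 to 929 CPM in WT and 220 to 352 in DF. Its log2 fold change in DF was −1.60, while those of the other early markers lay between −4.83 and −3.87. Of 6 late erythroid markers, 5 were lower in DF, 1 in TF and 3 in TFD, with summed levels of 298 to 314, 87.9 to 104, 158 to 352 and 146 to 208 CPM. In both lists TF replicate 3 was the highest TF library, and the other TF libraries reached at most 453 CPM for the early and 201 for the late markers. All 8 B cell markers were lower in every mutant genotype, with summed levels of 436 to 525 CPM for WT, 15.0 to 24.0 for DF, 20.8 to 76.9 for TF and 16.0 to 18.6 for TFD. Of 6 monocyte markers, 6 were higher in DF and TF and 5 in TFD, from 1962 to 2310 CPM in WT to 7208 to 8142 in DF, 5550 to 7717 in TF and 6800 to 7528 in TFD. CPM with TMM factors are relative levels and do not count cells. What part a gain in 1 cell type had in the levels of the others was not tested.

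Of 7 macrophage markers, 6 were lower and 1 higher in DF, 1 lower and 1 higher in TF, and 3 lower and 1 higher in TFD. Their sum was 217 to 300 CPM for WT, 200 to 217 for DF, 228 to 346 for TF and 214 to 230 for TFD. Within it Adgre1, the gene called higher, rose from 55.2 to 60.5 CPM in WT to 108 to 114 in DF. The sum therefore shows little of the falls of the other genes in DF. Between DF and TF, 5 of the 7 were lower in DF, among them Siglec1, at −2.55 (adjusted p = 0.01), and Cd163, at −2.24 (adjusted p = 0.0133). Vcam1 and Adgre1 were not called, with mean levels of 6.31 and 6.78 log2 CPM in DF and 6.29 and 6.95 in TF. Neutrophil markers summed to 31534 to 39740 CPM for WT, 37213 to 51256 in DF, 22873 to 30678 in TF and 16866 to 31274 in TFD, with 2 of 6 higher for DF, 1 lower for TF and 1 higher for TFD. Of all genes, 15.6% were called lower in TF and 14.7% higher in TFD, so a count of 1 of 6 is near those shares. Megakaryocyte markers, of a lineage close to the erythroid one, summed to 96.7 to 113 CPM for WT, 88.6 to 130 for DF, 80.5 to 118 for TF and 97.5 to 186 in TFD, with 2 of 6 lower in DF, 0 called in TF by edgeR (1 at an unadjusted p under 0.05, as had 45.3% of all genes) and 1 higher for TFD. T and NK cell markers summed to 78.5 to 84.3 CPM for WT, 68.3 to 84.2 for DF, 58.6 to 70.8 for TF and 45.5 to 68.1 for TFD, with 3, 2 and 3 of 6 lower. Nkg7 made up the largest part of this sum, at 42.2 to 46.9 CPM in WT and 46.6 to 69.4 in DF. Among the markers, Pax5 was at 0 counts in at least 1 DF and 1 TFD library, Igll1 in at least 1 DF library and Vpreb1 in at least 1 TF library, all of them B cell genes. No other marker was at 0, and the part of these cell types in the changes of the members was not tested.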

How the data were processed

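RNA-Seq was performed by the authors on whole BM cells, with RNA extracted in Trizol, treated with DNase and depleted of globin mRNA, and with stranded total RNA libraries. The authors used STAR to align reads to mm10 and featureCounts to assign the uniquely mapped ones to refGene genes, and retained genes above 0.5 CPM in over 3 samples. Tool versions and whether strand was used in counting are not given in the sources used here. The authors deposited raw counts per gene for 12199 genes, log2 CPM values, and the length in bases of the exons of each gene. The deposited log2 CPM equal those of edgeR with a prior count of 0.25 and TMM factors to within 5e-09. Lysis of red cells is described for flow cytometry suspensions and is not stated for the RNA. TFD replicate 3 was not analysed here.

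Libraries were grouped by the genotypes of the sample labels. The labels do not say whether each library is a separate animal, although WT, TF and TFD held libraries of both sexes, and p values measure the spread between these libraries. Library totals were 8274153 to 15900904. Raw counts were tested in R 4.3.3 with edgeR 4.0.16 (TMM factors, quasi-likelihood test, a mean for each of 4 genotypes) on 12175 genes that passed the same filter in the 11 libraries (24 did not). Genes were called at a Benjamini-Hochberg adjusted p under 0.05 over all genes. Levels are log2 CPM or CPM with TMM factors, and CPM per kb use the deposited length. Intervals are at 95% confidence. Epor minus Slc4a1 was compared by an exact permutation test in Python 3.11.15 with scipy 1.17.1. The procedure was tested on simulated data.

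The text names the 8 genes, called genes and extremes of 4 context lists, marker lists, and the 8 other genes with the highest Pearson correlation with the mean standardised profile. Certain genes that fit this description are left unreported. A few further genes of the context lists that did not pass the test were chosen after their values were seen. The members and lists were chosen with earlier results of these data known. Alternatives were RLE factors, library totals, no filter, DESeq2 1.42.0, a fit of only the groups compared, the replicate number as a block, each library left out, log2(CPM + 1), and, added after seeing the data, a term marking the libraries that held 10000 or more Xist reads.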

Additional observations from a re-analysis of the deposited data

Results flagged for a closer look

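The change versus WT differed between DF and TF for all 8 genes, by the test of that difference itself (DF versus TF, edgeR's quasi-likelihood test with Benjamini-Hochberg adjustment over 12175 genes). The difference in log2 fold change was −2.57 for Slc4a1, −2.77 for Sptb, −2.62 for Ank1, −2.73 for Epb42, −2.89 for Rhag, −2.68 for Rhd, −2.76 for Kel and −2.88 for Epor, with DF the lower of the pair. The adjusted p lay between 0.00325 and 0.00951, and 4.27% of all genes were called lower in the same comparison. Without DF replicate 2 the call for Epor was lost (adjusted p = 0.0653), and without TF replicate 3 all 8 were called at smaller differences, from −2.01 to −1.80 (−1.91 for Rhag). DF was below TF in all 9 combinations of a DF with a TF library for each gene. Single libraries were not tested as outlying.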

How the results depend on the processing

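The falls in DF versus WT held for all 8 genes under every alternative. In TF versus WT, 6 of 8 genes were called, compared with 3 by DESeq2 and 3 with only the groups compared in the fit. With each library left out, from 0 to 8 were called: 0 without TF replicate 1 or TF replicate 2, 1 without WT replicate 3, 3 without WT replicate 1 or 2, and 8 without TF replicate 3. Slc4a1 in TF versus WT changed sign to 0.069 without TF replicate 1 (range −0.89 to 0.069 with a library left out). In TFD versus WT, 7 were called and 2 to 8 with a library left out, the lowest without TFD replicate 2, where the lone TFD library is assumed to vary like the other groups. In DF versus TF, 7 to 8 were called, Epor being lost without DF replicate 2, and without TF replicate 3 the differences shrank to −2.01 to −1.80. In DF versus TFD, 0 were called, compared with 6 by DESeq2, 8 with only the groups compared and 0 to 8 with a library left out, namely 8 without TF replicate 3 and 1 without TF replicate 1. TF versus TFD changed sign without TF replicate 3 for 7 of 8 genes, and with a library left out it ran from −0.0084 to 1.17 for Slc4a1, −0.10 to 1.0 for Sptb, −0.084 to 1.05 for Ank1, −0.11 to 1.13 for Epb42, −0.035 to 1.31 for Rhag, −0.10 to 1.20 for Kel and −0.16 to 1.15 for Epor. The causes were not tested. Whether replicate numbers pair the libraries was not settled, as deviations from the means of 2 or 3 libraries cannot exclude it. Of 15 same-numbered pairs, 3 correlated above 0.1 in these deviations (range −0.30 to 0.25), and 4 libraries correlated best with their own number. With the replicate block, 7 of 8 were called in DF versus TFD, with 0.279% of all genes called lower, and 7 in TF versus WT, with 15.4%.

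For the lists, library totals gave 5 Epor pathway genes called in DF versus WT in place of 9 (5 to 9 with a library left out). The Xist term gave 8 skeleton genes in TF versus WT in place of 5 (3 to 8 with a library left out), and 2 erythroid transcription factor genes in DF versus TF in place of 5. A fit of only the groups compared gave 5 skeleton genes in TFD versus WT in place of 8, and 3 erythroid transcription factor genes in DF versus TF. With a library left out, the skeleton genes in TFD versus WT ran from 4 to 8, the surface genes from 5 to 11 in TF versus WT (7 with all libraries), 6 to 13 in TFD versus WT (12) and 4 to 10 in DF versus TF (8), the Epor pathway genes in DF versus TF from 1 to 3 (2), and the erythroid transcription factor genes from 2 to 5 in TF versus WT (5) and 0 to 5 in DF versus TF (5). Epor minus Slc4a1 ran from −1.44 to −0.89 over its alternatives, with −0.89 on the log2(CPM + 1) scale (exact permutation p = 0.00606 to 0.0222, where 0.0222 is the smallest that 45 splits allow). Among the 8 genes, Epor in DF rested on the fewest reads, 11 to 13.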
